A study of Mus musculus with 16 samples.

Results

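The comparison described here sets the mouse epididymis at gestational day 18 (gd18) against gestational day 16 (gd16), the last interval before birth that the study sampled. It rests on 6 of the 16 arrays of the series, 3 titled gd18 and 3 titled gd16, and these were chosen by their titles alone. All animals were wild-type CD-1 males, CD-1 being an outbred mouse stock. The gd16 animals were labelled Theiler stage 24 and the gd18 animals Theiler stage 26. Each sample of these 2 groups was labelled as not pooled and, in the series' design text, as the epididymides of 1 animal, with every animal from a different dam. Other arrays of the series are used below for comparison: 3 each at gd12 and gd14 (Theiler stages 20 and 22) and 3 at postnatal day 2 (pnd2, Theiler stage 27). The sample labels call the gd12 and gd14 samples pools of 3 animals. The design text describes each sample as from 1 animal, and the sources do not settle which is right. The pnd2 animals had been born, so age and birth cannot be told apart in a comparison with them.

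The epididymis is the coiled tube in which sperm mature after they leave the testis. It develops from the Wolffian duct, which androgen from the fetal testis keeps from regressing. During late gestation the duct lengthens and coils, its epithelium is still undifferentiated, and the mesenchyme around it forms smooth muscle and connective tissue. The whole organ was excised, so epithelium, mesenchyme, blood vessels and blood were measured together. In such bulk samples fewer cells of a type and less RNA per cell cannot be told apart.

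Signal is the brightness of a probe set, a group of short probes for a transcript, scaled by the authors so that the trimmed mean was the same on every array. Levels below are signals per array. Differences are on the log2(signal + 16) scale, gd18 minus gd16, with the standard error (SE) of a limma fit to the 6 arrays, and a gene is called changed at a Benjamini-Hochberg adjusted p under 0.05 over 11035 genes. The fold is 2 to the power of that difference, and for dim genes the constant of 16 makes it smaller. The 6 arrays resembled each other in median signal (120.8 to 133.3) and in the ratio of 3′ to 5′ signal of Gapdh (5.01 to 6.53). That ratio reflects the length of the RNA after 2 rounds of amplification, and not of the extracted RNA alone. An array correlated with its stage mates at 0.965 to 0.968 and with the other stage at 0.951 to 0.959. Markers of the epididymal duct epithelium, including Epcam, Cdh16 and Adgrg2, were present at both stages. Of the 13 on the array 12 passed the filter on dim genes, though Pax8, at 125.9 to 169.2, lay near the array medians.

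On gd16 replicate 9, some genes of the testis gave signal. Cyp17a1, the androgen-making enzyme of Leydig cells, read 2211 there against 23.3 and 8.50 on the other gd16 arrays and 20.0 to 55.9 at gd18. Inha, the inhibin subunit of Sertoli cells, read 1062 there and between 399.95 and 662.3 on the other 5 arrays. The summed signal of 8 Leydig markers was 6993 to 12381 at gd16 and 8360 to 9814 at gd18. Fdx1, at 5713 to 7383, made up most of it on each array. The summed signal of the 13 duct epithelium markers was 13538 to 19449 at gd16 and 26829 to 30294 at gd18, without overlap. Adgrg2, Epcam, Cdh16 and Krt8 were the brightest of these on every array and weigh most in the sum. For 19 red cell markers the sum was 4877 to 12368 at gd16 and 1759 to 2816 at gd18, also without overlap. Macrophage markers summed to 18953 to 21243 and 17995 to 21434. Endothelial markers summed to 17101 to 20783 and 14985 to 16868, again without overlap. Kdr and Aplnr were the brightest of these on every array and weigh most in the sum. None of the 20 tested endothelial markers was called, with a median difference of -0.13, and 6 of their differences were positive. The part of the differences in these sums in the results below was not tested.

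Between gd16 and gd18, 252 of the 11035 genes tested changed (2.28%). Of these, 200 were higher at gd18 (1.81% of genes tested) and 52 were lower (0.471%). Shares of the gene lists below are set beside these 2 percentages. The change was at least 2-fold in 94 of those higher and 25 of those lower. The largest rises were in secreted and defence proteins, enzymes, a blood-vessel peptide hormone and smooth muscle myosin, and the largest falls in an embryonic globin, a red cell transporter, a Wnt inhibitor and the receptor of anti-Müllerian hormone. Over all genes the median difference was 0.01, and 1822 genes had an unadjusted p under 0.05. All 3 gd18 arrays lay above all 3 gd16 arrays for 1439 genes, and below them for 981 genes (8.89%).

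How many genes passed depended on the arrays. Without gd18 replicate 4, 5 or 6 the counts of changed genes were 117, 94 and 116. Without gd16 replicate 7, 8 or 9 they were 149, 204 and 92. In each of these 6 fits every one of the 252 genes kept the sign of its difference, and 69 (27.4%) were called in all 6, 57 higher and 12 lower. For a gene whose stages do not overlap, leaving out an array cannot change that sign. A call is described below as held when it was made in each of these 6 fits.

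**Figure D1:**
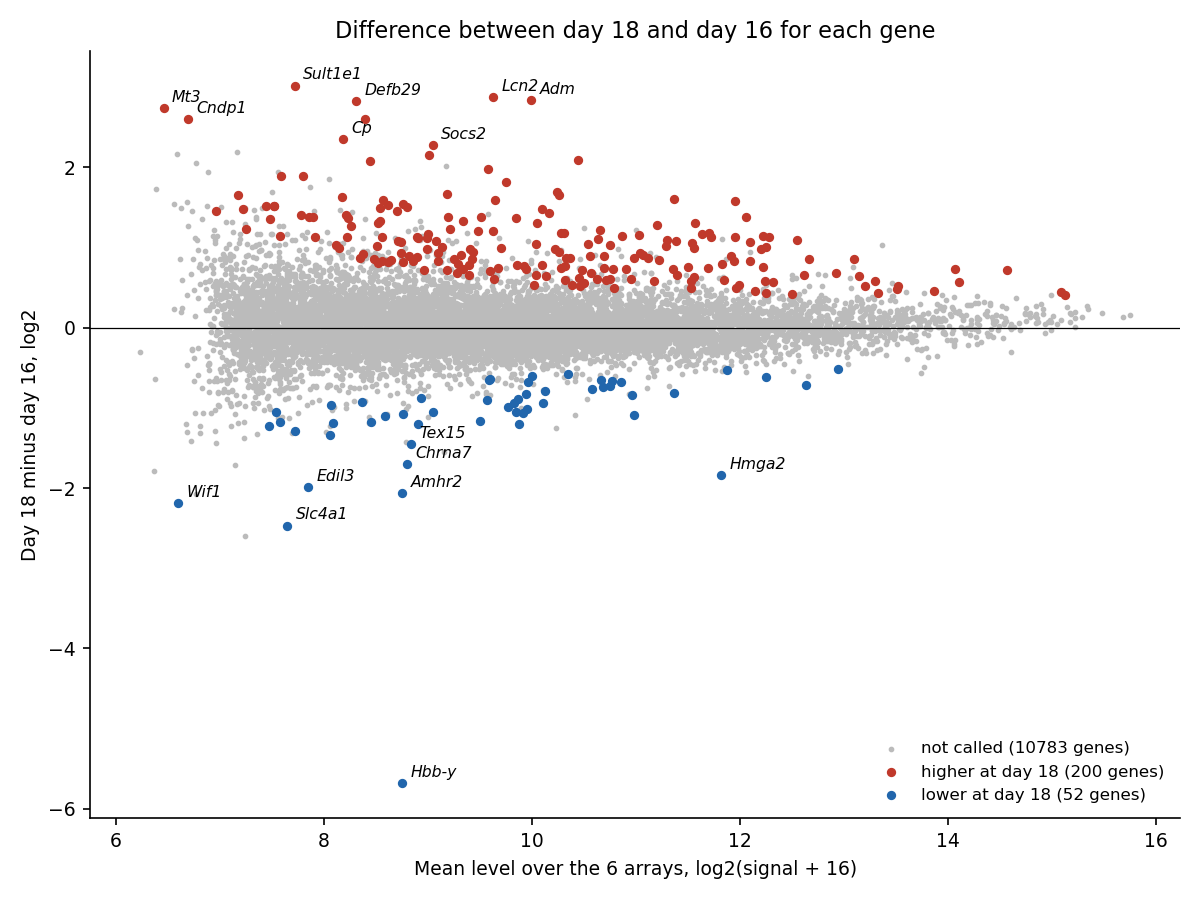
Each point is 1 of the 11035 genes tested, with its mean level over the 6 arrays on the horizontal axis, in log2(signal + 16), and its difference between gd18 and gd16 on the vertical axis, in log2. The 200 genes called higher are red, the 52 called lower are blue, and the 8 largest named changes in each direction carry their symbols. The called falls are fewer than the called rises, and Hbb-y lies far below all other points.

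The reference table held the bases just before the transcription start for 19 of the 30 genes named for the largest changes. At least 1 of the 3 motifs described below was found before 6 of these genes, and none before the other 13, Lcn2 and Adm among them. The windows of 3 of the 6 are shown, chosen after their matches were seen, from the largest fall and from a pair of defence genes. Each is 250 bases upstream of the start on GRCm38.p6, from RefSeq, written 5′ to 3′ on the gene's strand. Hbb-y, embryonic beta-globin, is at chr7:103853208-103853457 on the minus strand, and the capitals mark CCAAT, a box bound by general promoter factors, 83 bases before the start. The same window also holds TTCNNNGAA, not in capitals, 75 bases before the start. Cp, ceruloplasmin, is at chr3:19956999-19957248 on the plus strand, and the capitals mark overlapping matches, on both strands, to the box TATAAA. It also holds CCAAT, not in capitals, 118 bases before the start, and the table's other window for Cp has none of these motifs. Defb29, a beta-defensin, is at chr2:152540042-152540291 on the minus strand, and the capitals mark TTCNNNGAA, the spaced palindrome that STAT factors recognise, 215 bases before the start.
Hbb-y: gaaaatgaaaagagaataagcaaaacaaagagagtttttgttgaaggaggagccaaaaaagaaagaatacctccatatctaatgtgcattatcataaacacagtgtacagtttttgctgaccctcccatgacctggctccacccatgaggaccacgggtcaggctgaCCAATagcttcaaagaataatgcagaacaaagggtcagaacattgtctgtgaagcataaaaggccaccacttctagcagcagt
Cp: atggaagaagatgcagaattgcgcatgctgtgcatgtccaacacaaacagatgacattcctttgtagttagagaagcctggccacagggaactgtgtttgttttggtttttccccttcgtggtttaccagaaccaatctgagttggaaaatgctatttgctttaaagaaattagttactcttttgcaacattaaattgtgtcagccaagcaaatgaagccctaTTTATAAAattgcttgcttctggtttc
Defb29: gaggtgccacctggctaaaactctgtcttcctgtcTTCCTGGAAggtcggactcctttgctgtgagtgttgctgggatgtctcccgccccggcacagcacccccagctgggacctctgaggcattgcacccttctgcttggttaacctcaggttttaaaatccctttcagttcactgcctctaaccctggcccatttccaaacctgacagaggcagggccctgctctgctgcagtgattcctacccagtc
Searched on both strands of all 32851 upstream windows in that table, CCAAT occurred in 33.8%, TATAAA in 12.4% and TTCNNNGAA in 7.02%. Among the 11473 windows of genes tested the shares were 34.8%, 6.4% and 5.56%. The 222 windows of genes called higher had CCAAT in 26.1%, TATAAA in 9.91% and TTCNNNGAA in 4.95%, so that TATAAA lay below its share in all windows and above that in windows of tested genes. The 38 windows of genes called lower had 23.7%, 2.63% and 2.63%. None of these shares was tested. The matches are a description of these letters and not of binding.

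Genes for proteins that the epididymis secretes or uses against microbes included the steepest rises. Lcn2, the iron-scavenging lipocalin of epithelia, read 235.2, 497.2 and 176.6 at gd16 and 2066, 1962 and 2347 at gd18. The lowest gd18 array was far above the highest gd16 array, and the difference was 2.87 ± 0.30 (SE), 7.32-fold, with an adjusted p of 0.00161. Defb29, a beta-defensin gene, went from 129.1, 115.1 and 73.0 to 585.2, 1110 and 868.4 (2.82 ± 0.27, adjusted p = 0.00138). Cp, the copper-carrying ferroxidase ceruloplasmin, read 124.3, 75.6 and 150.3 and then 830.9, 560.2 and 565.2 (2.35 ± 0.26, adjusted p = 0.00212). All 8 Cp probe sets were higher at gd18, by 1.11 to 2.74. C2, a complement protease, rose 2.60-fold and Serping1, the C1 esterase inhibitor of complement, rose 1.57-fold. All of these calls held except that of Serping1, whose adjusted p reached 0.144.

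Of the 16 tested genes for antimicrobial, complement and iron-binding proteins, 5 rose (31.2%) and 0 fell, with a median difference of 0.58. Of the 16 tested genes for epididymal secreted and sperm-coat proteins, 4 rose, against 1.81% of all genes tested, and 0 fell, with a median of 0.61, and 15 of the 16 differences were positive. Lcn2 is in both lists. Besides Lcn2 the secreted genes that rose were Wfdc15b, a protease inhibitor of the whey-acidic family (2.74-fold, held), Ptgds, the lipocalin-type prostaglandin D synthase (2.66-fold), and Spint2, a Kunitz inhibitor of serine proteases (1.65-fold). Leaving out an array gave 4 to 5 rises among the defence genes and 2 to 3 among the secreted genes. Others of the secreted list did not pass, among them Wfdc2 (0.74, adjusted p = 0.11), Gpx3 (0.60, adjusted p = 0.19) and Clu (0.56, adjusted p = 0.17). The duct epithelium markers, whose summed signal moved the same way, are given above.

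Antigen presentation and interferon genes had the highest median of the lists, 0.74 over 14 tested genes, and 3 of them rose (21.4%) and 0 fell. Ifi35, an interferon-induced protein, rose 2.01-fold and its call held. Ifitm3, a membrane protein that blocks virus entry, rose 1.83-fold, and Ifi27 rose 1.67-fold. The class I histocompatibility genes H2-K1 and H2-D1 differed by 1.41 and 1.18 without passing (adjusted p = 0.051 and 0.052), and Xaf1 differed by 1.52 (adjusted p = 0.064). Rsad2, the antiviral enzyme viperin, pointed the other way at -1.01 (adjusted p = 0.16). The count of rises was 1 to 5 when an array was left out. None of the 19 tested macrophage markers changed, with a median of 0.01. Of 6 tested markers in the list of lymphocytes, granulocytes and mast cells 0 changed, with a median of 0.40. The lymphocyte markers Cd3e, Cd3g, Cd79a and Cd79b did not pass the filter on dim genes.

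Adm and Socs2 were among the clearest single rises. Adm encodes adrenomedullin, a peptide that widens blood vessels and is induced by low oxygen. It read 457.3, 335.8 and 314.9 at gd16 and 2788, 2008 and 3538 at gd18, a rise of 2.84 ± 0.21 (adjusted p = 0.000337). A dimmer Adm probe set, at 43.7 to 83.7 and then 107.6 to 245.9, differed by 1.20. Socs2, a feedback inhibitor of growth hormone and cytokine signalling, read 222.1, 192.7 and 260.9 and then 1036, 1215 and 1198 (2.28 ± 0.16, adjusted p = 0.000325). All 6 Socs2 probe sets were higher at gd18, by 1.36 to 2.66, and both calls held.

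Among 29 tested genes of the low-oxygen response, glycolysis and adrenomedullin signalling, 3 rose (10.3%, against 1.81% of all genes tested) and 0 fell. The median was 0.40, and 23 of the 29 differences were positive. These were Adm, its receptor Calcrl (1.51-fold) and Ndrg1, a stress-induced gene (2.25-fold). The adrenomedullin receptor partners Ramp2 and Ramp3 differed by -0.15 and -0.13 (adjusted p = 0.67 and 0.83). Without an array 1 to 3 of the 29 rose, Adm among them each time, and the median ran from 0.24 to 0.46. Of 19 genes of cytokine, growth hormone and JAK-STAT signalling Socs2 was the only call (5.26%), beside a median of 0.18. The growth hormone receptor Ghr differed by -0.19 (adjusted p = 0.41), the other feedback inhibitors Socs3 and Cish by 0.18 and 0.34 (adjusted p = 0.71 and 0.31), and the cytokine receptor subunit Osmr by 0.75 (adjusted p = 0.085).

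Enzymes and binding proteins made up much of the remaining leading rises. Maob, the mitochondrial monoamine oxidase, read 764.6, 670.8 and 555.1 at gd16 and 2230, 2898 and 3616 at gd18 (2.09 ± 0.18, adjusted p = 0.00071). Fmo1, a flavin monooxygenase that oxidises drugs and amines, rose 3.94-fold, and B4galnt2, a glycosyltransferase of cell-surface sugars, rose 4.23-fold. Crip1, a small zinc-binding LIM protein, rose 3.52-fold. These 4 calls held. Sult1e1, the estrogen sulfotransferase, had the largest difference at 3.02 ± 0.63, from 139.8, 89.6 and 8.66 to 927.6, 292.1 and 725.9. Its adjusted p was 0.0421 and it held in 1 of the 6 fits without an array, with an adjusted p of up to 0.127. Its lowest signal was on gd16 replicate 9, where the Leydig genes were high, and it is itself a Leydig cell marker. Mt3, a metallothionein, rose 6.67-fold (adjusted p = 0.0208) and Cndp1, a carnosine-cleaving peptidase, 6.06-fold (adjusted p = 0.0224). Both were dim at gd16, under 50, and their adjusted p reached 0.104 and 0.101 without an array.

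**Figure D2:**
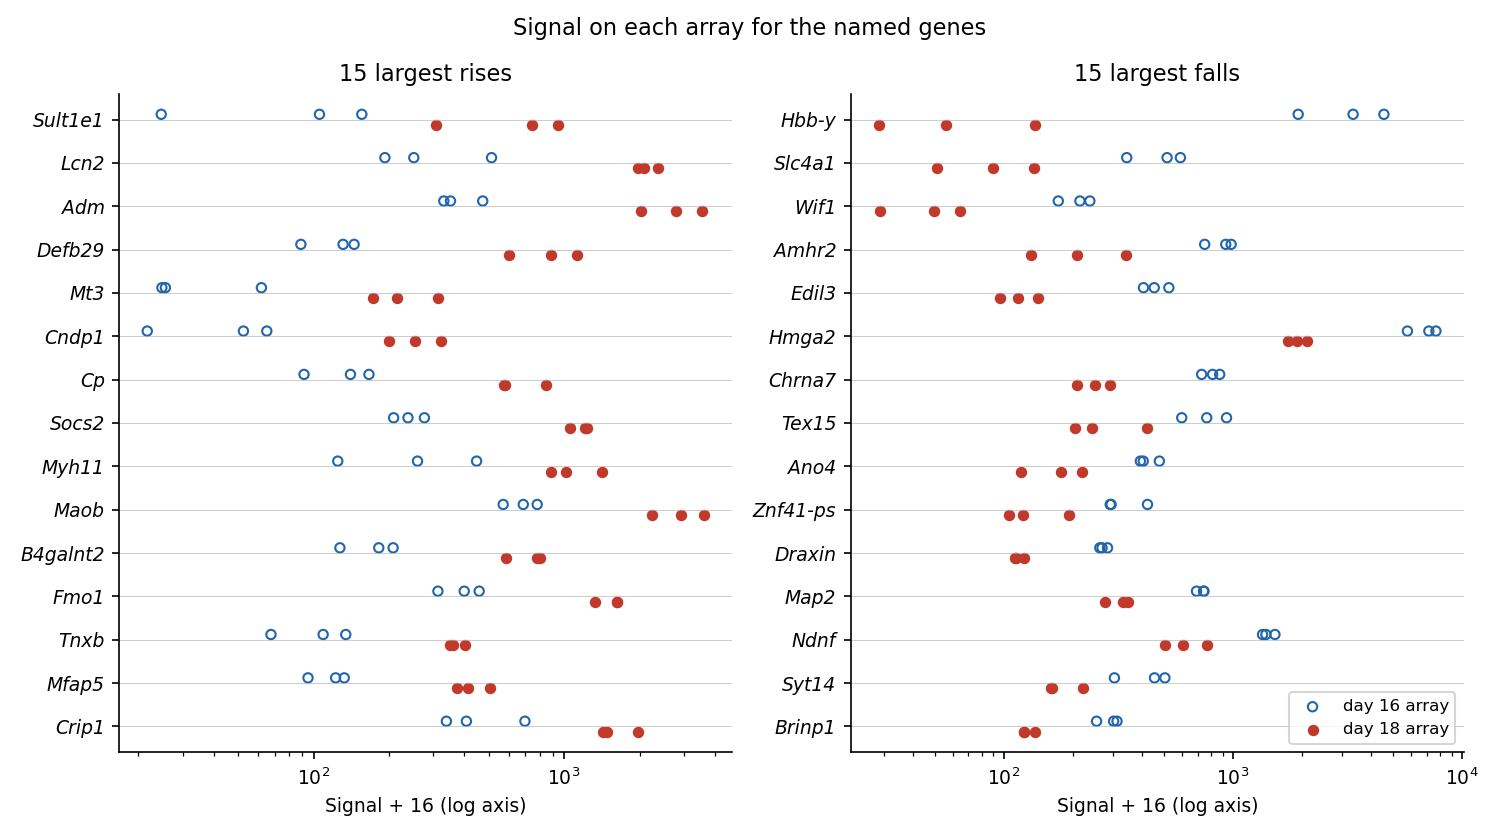
Signal plus 16 on each array, on a log axis, for the 15 genes with the largest rise (left) and the 15 with the largest fall (right), open blue circles for the 3 gd16 arrays and filled red circles for the 3 gd18 arrays. In every row the 3 gd18 arrays lie on 1 side of the 3 gd16 arrays, which the rule for naming genes required, and the spread within a stage is widest for Sult1e1 and Hbb-y.

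Sult1e1 was the only call among 11 tested genes of steroid receptors and androgen metabolism (9.09%), beside a median of 0.16. The estrogen receptor Esr1 differed by 0.08 (adjusted p = 0.82) and the glucocorticoid receptor Nr3c1 by 0.21 (adjusted p = 0.38). Of 27 genes known to respond to glucocorticoids, 7 rose (25.9%, against 1.81% of all genes tested) and 0 fell, with a median of 0.53, and 23 of the 27 differences were positive. They were Lcn2, Fam107a (2.79-fold), the lipid-binding Anxa1 (2.03-fold), Cavin2, a coat protein of caveolae (1.79-fold), Glul, glutamine synthetase (1.48-fold), Errfi1, an inhibitor of EGF receptors (1.44-fold), and Nfkbia, the inhibitor of NF-kappaB (1.43-fold). Other targets did not pass, such as Fkbp5 (0.34, adjusted p = 0.35), Tsc22d3 (0.33, adjusted p = 0.33) and Zbtb16 (0.92, adjusted p = 0.15). The calls of Lcn2, Anxa1 and Cavin2 held, and 3 to 7 of the list rose when an array was left out.

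Among 15 genes that make, bind or break down retinoic acid, 2 rose and 2 fell, 13.3% each way, against 1.81% and 0.471% of all genes. Aldh1a1, a retinaldehyde dehydrogenase, read 1039, 1293 and 2481 at gd16 and 5292, 4420 and 4137 at gd18 (3.05-fold, adjusted p = 0.0147). The highest of its gd16 values was on replicate 9. Rbp4, the retinol carrier, rose 3.01-fold and held. Rdh10 and Aldh1a2, which make retinaldehyde and retinoic acid in mesenchyme, fell by 0.53 and 0.52 (adjusted p = 0.0494 and 0.0339). Neither of these falls held, and 1 to 2 of the 15 rose and 0 to 3 fell when an array was left out.

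Smooth muscle genes rose in part. Of 25 tested contractile genes 7 rose and 0 fell, 28.0% against 1.81% of all genes tested, with a median of 0.41. Myh11, the heavy chain of smooth muscle myosin, read 108.9, 431.3 and 243.9 at gd16 and 870.9, 1395 and 1003 at gd18 (2.15 ± 0.38, adjusted p = 0.0217), and its adjusted p reached 0.0940 without an array. Acta2, smooth muscle actin, was already bright at gd16 (17872 to 20908) and reached 29772 to 32009 (1.64-fold, adjusted p = 0.00307). Tagln, an actin-binding protein of smooth muscle, rose 2.27-fold and Pdlim3, an actin-anchored scaffold, 2.44-fold, and these calls held with that of Acta2. Ppp1r14a, an inhibitor of myosin phosphatase (2.34-fold), the tropomyosin Tpm2 (1.78-fold) and Mylk, the myosin light chain kinase (1.44-fold), rose without holding. Cnn1, calponin, differed by 2.19 but did not pass (adjusted p = 0.061), and Myocd and Srf, transcription factors of the programme, differed by 0.41 and -0.04 (adjusted p = 0.53 and 0.92). Without an array 3 to 7 of the list rose. Of 21 skeletal muscle markers 4 were tested, with 0 calls. The summed signal of the 21 was 1988 to 2296 at gd16 and 2382 to 3581 at gd18, without overlap. Tnnt1, at 624.1 to 1038 and then 1019 to 1486, was the brightest of them on every array and weighs most in the sum. The part of this sum in the smooth muscle rises was not tested.

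The called genes of the elastic fibre, proteoglycan and collagen lists all rose. Mfap5, a microfibril protein, read 79.0, 106.5 and 116.5 and then 356.4, 489.7 and 397.4 (1.89 ± 0.23, adjusted p = 0.00307). Of 19 elastic fibre genes 5 rose (26.3%) and 0 fell: Mfap5, Efemp1, a fibulin (2.11-fold), Eln, elastin (1.92-fold), Ltbp4, a TGF-beta carrier of microfibrils (1.83-fold), and Lox, the enzyme that crosslinks elastin and collagen (1.81-fold). All but Eln held, the median of the list was 0.31, and 4 to 5 rose when an array was left out. Of 20 proteoglycan genes 4 rose (20.0%) and 0 fell, with 3 to 4 rising without an array and a median of 0.16. Aspn, asporin, read 605.9, 794.6 and 635.1 and then 2186, 2174 and 2091 (1.65 ± 0.13, adjusted p = 0.000513). Ogn, osteoglycin, rose 2.21-fold and Fmod, fibromodulin, 2.04-fold, both held, while Bgn, biglycan, rose 1.40-fold without holding.

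Of 29 tested collagens 3 rose (10.3%) and 0 fell, with a median of 0.27: Col9a1 (2.34-fold), the fibrillar Col1a1 (1.60-fold) and the basement membrane chain Col4a1 (1.37-fold). None of the 3 held, and 0 to 2 collagens rose when an array was left out. Tnxb, the matrix protein tenascin-X, rose 3.72-fold (adjusted p = 0.00985, up to 0.0523 without an array). Of 19 matrix proteases and inhibitors Htra1, a secreted serine protease, was the only call (5.26%, 2.09-fold, not held), beside a median of 0.01.

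Among growth factor genes, 3 of 18 for insulin-like growth factors and their handling rose (16.7%) and 0 fell, with a median of 0.16. Igfbp7, a secreted binding protein, read 2161, 2931 and 1871 and then 6003, 7540 and 7025 (1.58 ± 0.16, adjusted p = 0.00161). Stc2, stanniocalcin 2, an inhibitor of the pappalysin proteases, rose 2.78-fold and Pappa2, a pappalysin, 1.65-fold. The first 2 of these held, and 2 to 4 of the list rose when an array was left out. Igf1 itself differed by 0.03 (adjusted p = 0.95). Of 24 FGF, EGF and HGF genes 3 rose (12.5%) and 0 fell: Met, the HGF receptor (2.47-fold, held), Fgf13, an intracellular FGF homologue (1.90-fold), and Erbb3, a neuregulin receptor (1.57-fold). The median of that list was 0.17, and 1 to 2 of its genes rose when an array was left out.

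Epithelial genes were among the rises, and some of them are also in the marker sum given above. Of 38 tested genes for keratins, junctions and epithelial regulators 8 rose (21.1%) and 0 fell, with a median of 0.58. Ehf, an ETS factor of epithelia, read 190.5, 307.0 and 229.2 and then 747.0, 712.2 and 718.9 (1.55 ± 0.19, adjusted p = 0.00294). Cdcp1, a transmembrane glycoprotein, rose 2.84-fold, and Epcam, the epithelial adhesion molecule, 2.10-fold, from 2642, 3954 and 2598 to 6178, 6338 and 6485. A dimmer Epcam probe set differed by 0.02. Prss8, the protease prostasin (2.20-fold), Pkp3, a desmosome protein (2.05-fold), Esrp1, a splicing regulator of epithelia (1.91-fold), Marveld3, a tight junction protein (1.78-fold), and Krt7 (1.56-fold) also rose. The calls of Ehf, Cdcp1 and Epcam held, and 3 to 9 of the 38 rose when an array was left out. The epithelial adhesion gene Cdh1 differed by 0.47 and Krt8 by 0.59 without passing (adjusted p = 0.23 and 0.060).

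The cadherins split. Cdh16, a cadherin of Wolffian-derived epithelia, read 2101, 2429 and 1885 and then 4574, 4025 and 4169, a rise of 0.99 ± 0.12 (adjusted p = 0.00294). Cdh2, N-cadherin, read 1470, 1338 and 1347 and then 682.6, 648.5 and 710.8, a fall of 1.01 ± 0.12 on the log2 scale (adjusted p = 0.00287). Both calls held, and the stages did not overlap for either gene. Across the 17 cadherins the median was -0.37, and 4 of the differences were positive. Of 12 genes for water, ion and pH transport in the lumen 0 changed, with a median of 0.28. Of the 12 tested epithelium markers 4 rose (33.3%) and 0 fell (Ehf, Adgrg2, Epcam and Cdh16), with a median of 0.64.

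**Figure D3:**
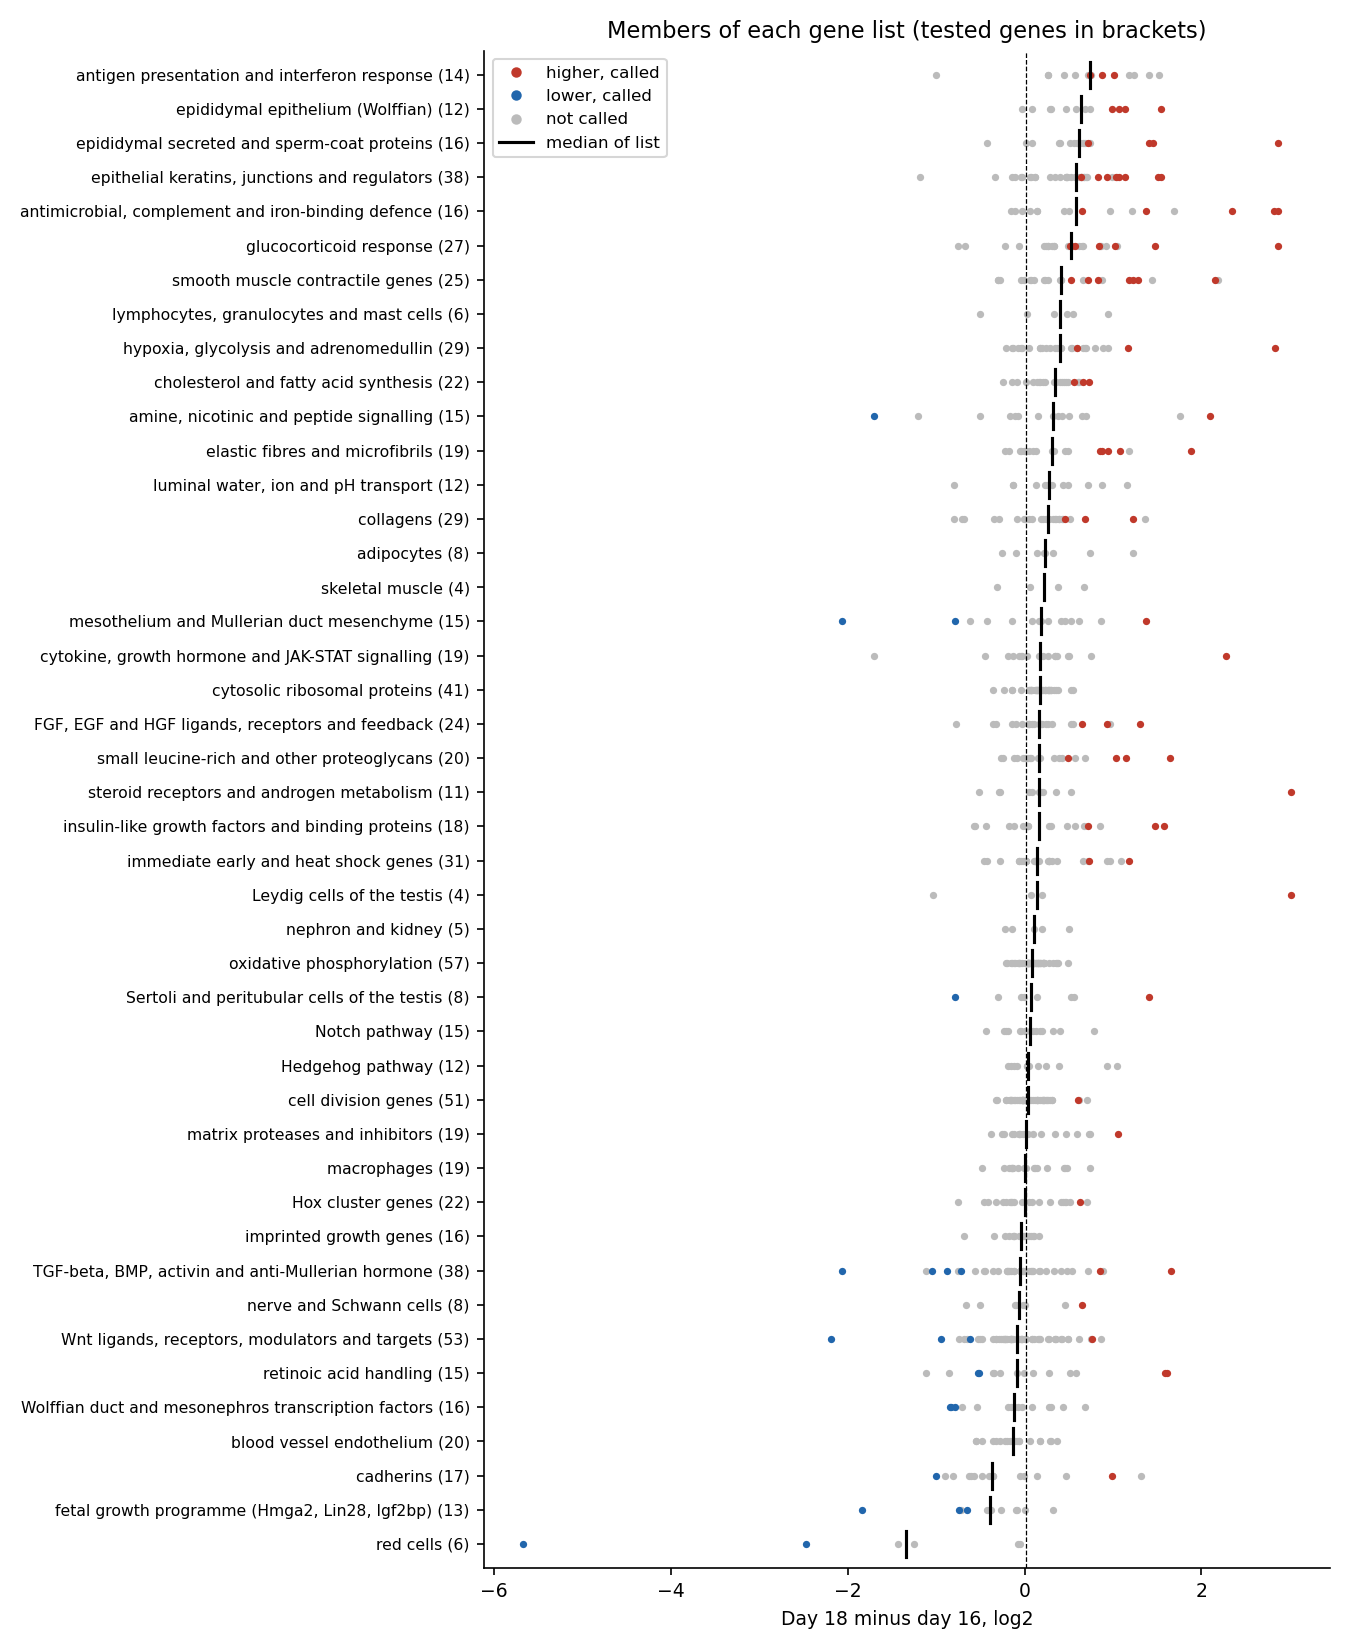
Each row is a gene list with the number of its tested genes in brackets, each point the difference of a gene between gd18 and gd16 in log2, red for called higher, blue for called lower and grey for not called. Black bars are the medians of the lists, from 0.74 for antigen presentation and interferon genes to -1.34 for red cell genes, and the dashed line is the median of all genes. The red cell median ran from -1.73 to -0.77 when an array was left out.

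The largest fall was in blood. Hbb-y, the beta-like globin of primitive red cells, read 4534, 3323 and 1908 at gd16 and 12.5, 120.7 and 40.1 at gd18. The difference was -5.68 ± 0.49, 51.2-fold, with an adjusted p of 0.00071. Since the gd18 signals lay below the array medians, this fold depends on the constant of 16. A probe set that shares the suffix for possible cross-binding differed by -5.85. Slc4a1, the anion exchanger of red cells, read 573.4, 499.5 and 327.8 and then 73.5, 119.0 and 35.0 (-2.47 ± 0.36, adjusted p = 0.0083). Both calls held. The adult globin Hbb-b2 differed by -1.43 and Alas2, the haem synthesis enzyme of red cells, by -1.25, and neither passed (adjusted p = 0.12 and 0.27). Both were highest on gd16 replicate 7, at 1469 and 4462. The falls of Hbb-y and Slc4a1 were the 2 calls among 6 tested red cell genes (33.3%, against 0.471% of all genes lower), and the red cell sums are given above. Both genes passed the filter on dim genes through their gd16 signal alone, which raises that share. Of the 19 red cell markers 13 did not pass it. Among these the globins Hbb-bh1 and Hba-x read 100.6 or below on all 6 arrays. Klf1 read 93.7, 80.8 and 17.2 at gd16 and 164.2, 91.8 and 171.1 at gd18. The median difference of the 6 tested genes was -1.34. It ran from -1.73 to -0.77 when an array was left out and was -0.24 over all 19 red cell markers with no filter on dim genes, with 2 falls and 0 rises called in each of these fits.

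Hmga2, a chromatin protein of fetal growth that the let-7 miRNAs repress, read 7658, 5748 and 7131 at gd16 and 2089, 1885 and 1717 at gd18. It fell by 1.84 ± 0.13 on the log2 scale, 3.57-fold, with an adjusted p of 0.000325, and all 4 of its probe sets were lower, by 0.95 to 1.91. Of 13 tested genes of that fetal growth programme 3 fell (23.1%, against 0.471% of all genes) and 0 rose, with a median of -0.39. The transcription factors E2f6 (1.67-fold) and Sox11 (1.57-fold) were the others, neither held, and 1 to 2 of the list fell when an array was left out. The RNA-binding Igf2bp3 differed by -0.42 (adjusted p = 0.089) and Myc by 0.01 (adjusted p = 0.99). The imprinted growth genes stayed out of the calls: 0 of 16 changed, with a median of -0.04, and Igf2 differed by -0.18 (adjusted p = 0.38). Of 51 cell division genes Cdkn2c, an inhibitor of cyclin-dependent kinases, was the only call (1.52-fold higher). That is 1.96%, near the 1.81% of all genes tested. Cdkn2c was called in 0 of the 6 fits without an array, and the median of the list was 0.03.

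Some genes of the TGF-beta, BMP and anti-Müllerian hormone list were among the falls. Amhr2, the receptor of anti-Müllerian hormone, read 736.1, 913.1 and 965.0 and then 324.4, 192.3 and 115.5 (-2.07 ± 0.30, adjusted p = 0.00724, held). Its other probe sets differed by -1.54 and -0.65. Of 38 TGF-beta, BMP, activin and anti-Müllerian hormone genes 4 fell (10.5%) and 2 rose (5.26%), with a median of -0.05. Bmper, a BMP-binding protein, fell 2.07-fold and held, Bambi, a decoy BMP receptor, fell 1.84-fold, and Tgfbi, a secreted TGF-beta target, fell 1.64-fold. The BMP antagonist Chrdl1 rose 3.15-fold and the receptor Bmpr1b 1.81-fold. When an array was left out 2 to 4 fell and 0 to 2 rose.

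Wif1, a secreted inhibitor of Wnt ligands, read 198.8, 156.9 and 221.3 and then 48.7, 33.9 and 12.9 (-2.19 ± 0.41, adjusted p = 0.0278). Its adjusted p reached 0.132 without an array. Wnt4, a ligand of the urogenital mesenchyme, fell 1.92-fold, Apcdd1, a Wnt inhibitor, fell 1.54-fold, and the receptor Fzd6 rose 1.70-fold. These were the calls among 53 tested Wnt genes, 5.66% lower and 1.89% higher, with a median of -0.09. None of them held, and without an array 0 to 2 fell and 0 rose. Axin2 and Lef1, targets of the pathway, differed by 0.35 and -0.49 (adjusted p = 0.20 for both). No gene of the Hedgehog (12 tested, median 0.04) or Notch (15 tested, median 0.06) pathway was called.

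Of 16 tested transcription factors of the Wolffian duct and mesonephros 3 fell (18.8%, against 0.471% of all genes) and 0 rose, with a median of -0.12. They were Nr2f1, a nuclear receptor (1.79-fold), Hand2, a factor of mesenchyme (1.78-fold), and Wt1, the Wilms tumour factor (1.73-fold). Wt1 was highest on gd16 replicate 9, at 1723 against 1316 and 1340. None of these calls held, and 0 to 2 of the list fell when an array was left out. The epithelial factors Pax8 and Gata3 differed by -0.03 and 0.30 (adjusted p = 0.97 and 0.58). Of 22 Hox genes Hoxd8 alone was called (4.55%, 1.54-fold higher, not held), with a median of 0.01 for the list.

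Edil3, a matrix protein that binds integrins, read 508.7, 390.8 and 437.1 and then 124.7, 80.2 and 99.0 (-1.99 ± 0.23, adjusted p = 0.00247). Chrna7, a subunit of nicotinic acetylcholine receptors, read 798.3, 713.5 and 858.7 and then 233.4, 274.1 and 192.3 (-1.70 ± 0.17, adjusted p = 0.00161). Another, dim Chrna7 probe set differed by 0.05. Map2, a microtubule protein of dendrites, and Ndnf, a secreted neurotrophic factor, each fell 2.30-fold, and all 4 of these calls held. Draxin, an axon guidance protein (2.34-fold), Syt14, a synaptotagmin (2.28-fold), Brinp1 (2.26-fold), Tex15, a meiosis gene (2.74-fold), the scramblase-family gene Ano4 (2.54-fold) and the pseudogene Znf41-ps (2.45-fold) fell without holding, with adjusted p of up to 0.150. Nerve and Schwann cell markers had 0 falls among 8 tested genes, with summed signals of 2588 to 3802 at gd16 and 2702 to 3550 at gd18. The Schwann cell receptor Erbb3 was their only call (12.5%), a rise that did not hold. None of the 21 germ cell markers on the array passed the filter.

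Of 22 cholesterol and fatty acid synthesis genes 3 rose (13.6%, against 1.81% of all genes) and 0 fell: Hmgcs1, which makes the precursor of cholesterol (1.65-fold, held), Scd1, a fatty acid desaturase (1.58-fold), and Elovl6, a fatty acid elongase (1.47-fold). The median of that list was 0.35, and 19 of the 22 differences were positive. In each fit without an array 1 of the 22 rose, and the median ran from 0.29 to 0.45. None of 41 ribosomal protein genes or 57 oxidative phosphorylation genes was called, with medians of 0.17 and 0.08. Of 31 immediate early and heat shock genes Ccn2, a matricellular growth factor (2.28-fold, held), and Klf4 (1.66-fold) rose (6.45%), with a median of 0.14, and 1 rose in each fit without an array.

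The same genes were then looked at on arrays that the comparison did not use, gd14 and pnd2. There the postnatal stage is later by a longer interval, and pnd2 replicate 3 was left out because it stood apart from its stage mates, with a Gapdh 3′ to 5′ ratio of 63.2 against 7.18 and 6.81. Of the 200 genes higher at gd18, 174 (87.0%) were higher at pnd2 than at gd14, against 12.0% of all genes tested, and 1 was lower. These 174 were 13.1% of the genes higher at pnd2. The median difference of the 200 was 1.45, against -0.01 for all genes. Of the 52 genes lower at gd18, 40 (76.9%) were lower at pnd2 than at gd14, against 9.80% of all genes, and 0 were higher. With pnd2 replicate 3 included, the shares were 46.0% and 42.3%, and the counts over all genes fell from 2409 to 315. Of all 11035 genes 235 were then higher and 80 lower, where 1328 and 1081 had been without it. The 12.0% and 9.80% above therefore do not serve as the background of that fit.

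The gene that ran the other way was Scd1, higher at gd18 than at gd16 by 0.66 but lower at pnd2 than at gd14 by 0.45 on the log2 scale (adjusted p = 0.0403). Another 25 of the 200 did not pass between gd14 and pnd2. Mt3 (0.87, adjusted p = 0.20) and Ccn2 (-0.04, adjusted p = 0.88) were among them, named here after their values were seen. Mt3 read 156.2 to 297.8 at gd18 and 84.9 to 193.5 at pnd2. Of the 200 genes, 141 had their highest stage mean at pnd2, 45 at gd18, 13 at gd12 and 1 at gd14. Of the 52 genes, 37 had their lowest stage mean at pnd2, 8 at gd12, 6 at gd18 and 1 at gd14. These counts use the gd16 and gd18 values that made the calls. The gd16 mean therefore could not be the highest for the 200 genes or the lowest for the 52. The counts were not set beside those of all genes.

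**Figure D4:**
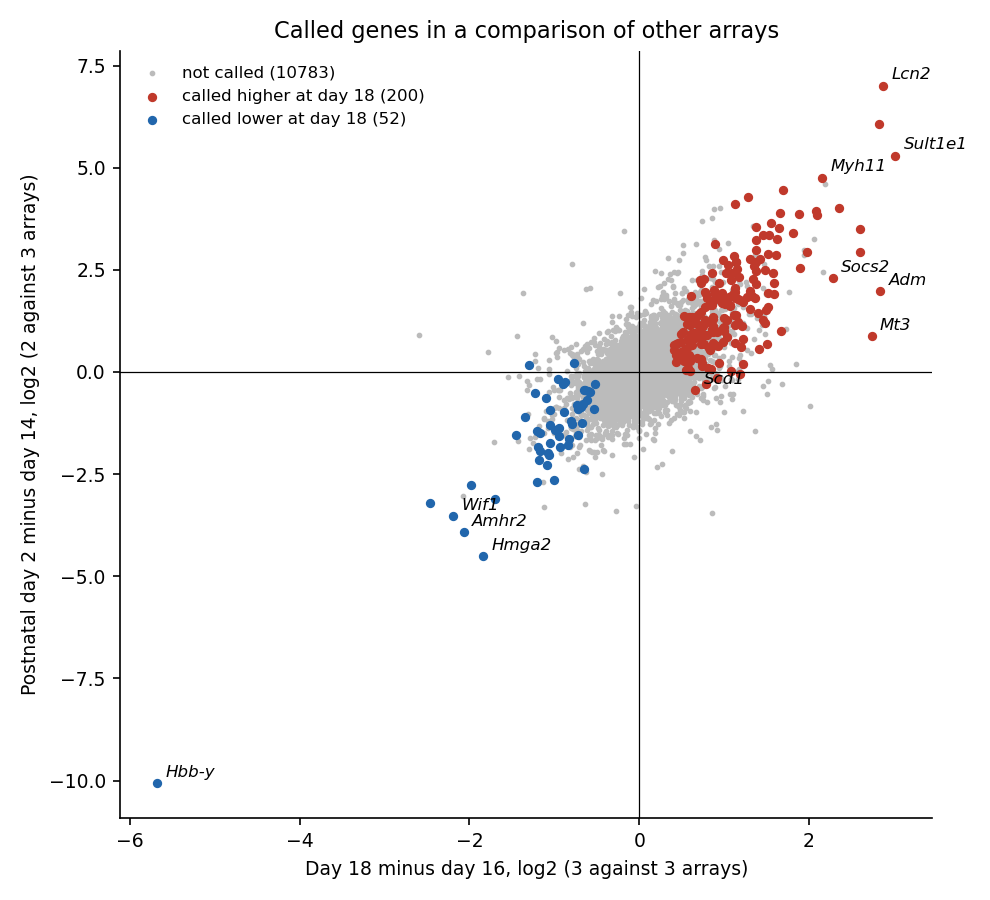
Each point is a gene, with its difference between gd18 and gd16 on the horizontal axis and its difference between pnd2 (replicates 1 and 2) and gd14 on the vertical axis, both in log2 and from separate arrays. Of the 200 genes called higher (red) 196 lie above the horizontal line, and of the 52 called lower (blue) 2 do.

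The earlier interval, gd12 to gd14, had a different pattern for the same genes. Of the 200 genes 65 (32.5%) were higher at gd14 than at gd12, against 13.9% of all genes, and 28 (14.0%) were lower, against 12.4%. Adm and Socs2 were among the 28. Adm read 969.2 to 2596 at gd12, 297.1 to 513.1 at gd14, and between 1609 and 1713 at pnd2, so its low values lay at gd14 and gd16 only. Socs2 read 975.5 to 1960 at gd12, 185.4 to 251.0 at gd14 and 1128 to 2014 at pnd2. Their differences between gd12 and gd14 were -2.05 and -2.71 (adjusted p = 0.0026 and 0.0002). Lcn2, in contrast, was at 56.9 or below on all gd12 and gd14 arrays and at 4626 to 6803 at pnd2.

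Of the 52 genes lower at gd18, 20 (38.5%) had been higher at gd14 than at gd12, against 13.9% of all genes, and 2 (3.85%) lower. Wif1 read 59.6 to 107.6 at gd12, 471.3 to 638.2 at gd14 and 14.0 to 61.3 at pnd2. Ndnf read 478.4 to 789.6, then 1790 to 2202, and 296.3 to 426.9 at pnd2. Apcdd1, Has2, the hyaluronan synthase, and the glutamate receptor gene Grm7 were also higher at gd14 than at gd12, by 2.67, 2.43 and 2.90. Wnt4, Bmper, Hand2, Nr2f1 and Tgfbi were of the same 20, by 0.59 to 1.22. The 2 genes lower at gd14 than at gd12 were Amhr2 and Slc4a1. Amhr2 read 6288 to 8377 at gd12 and 1873 to 2652 at gd14. Hmga2 went from 23184 to 35425 at gd12 to 663.6 to 1041 at pnd2, and Hbb-y from 34996 to 42099 at gd12 to 27.9 or below at pnd2.

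**Figure D5:**
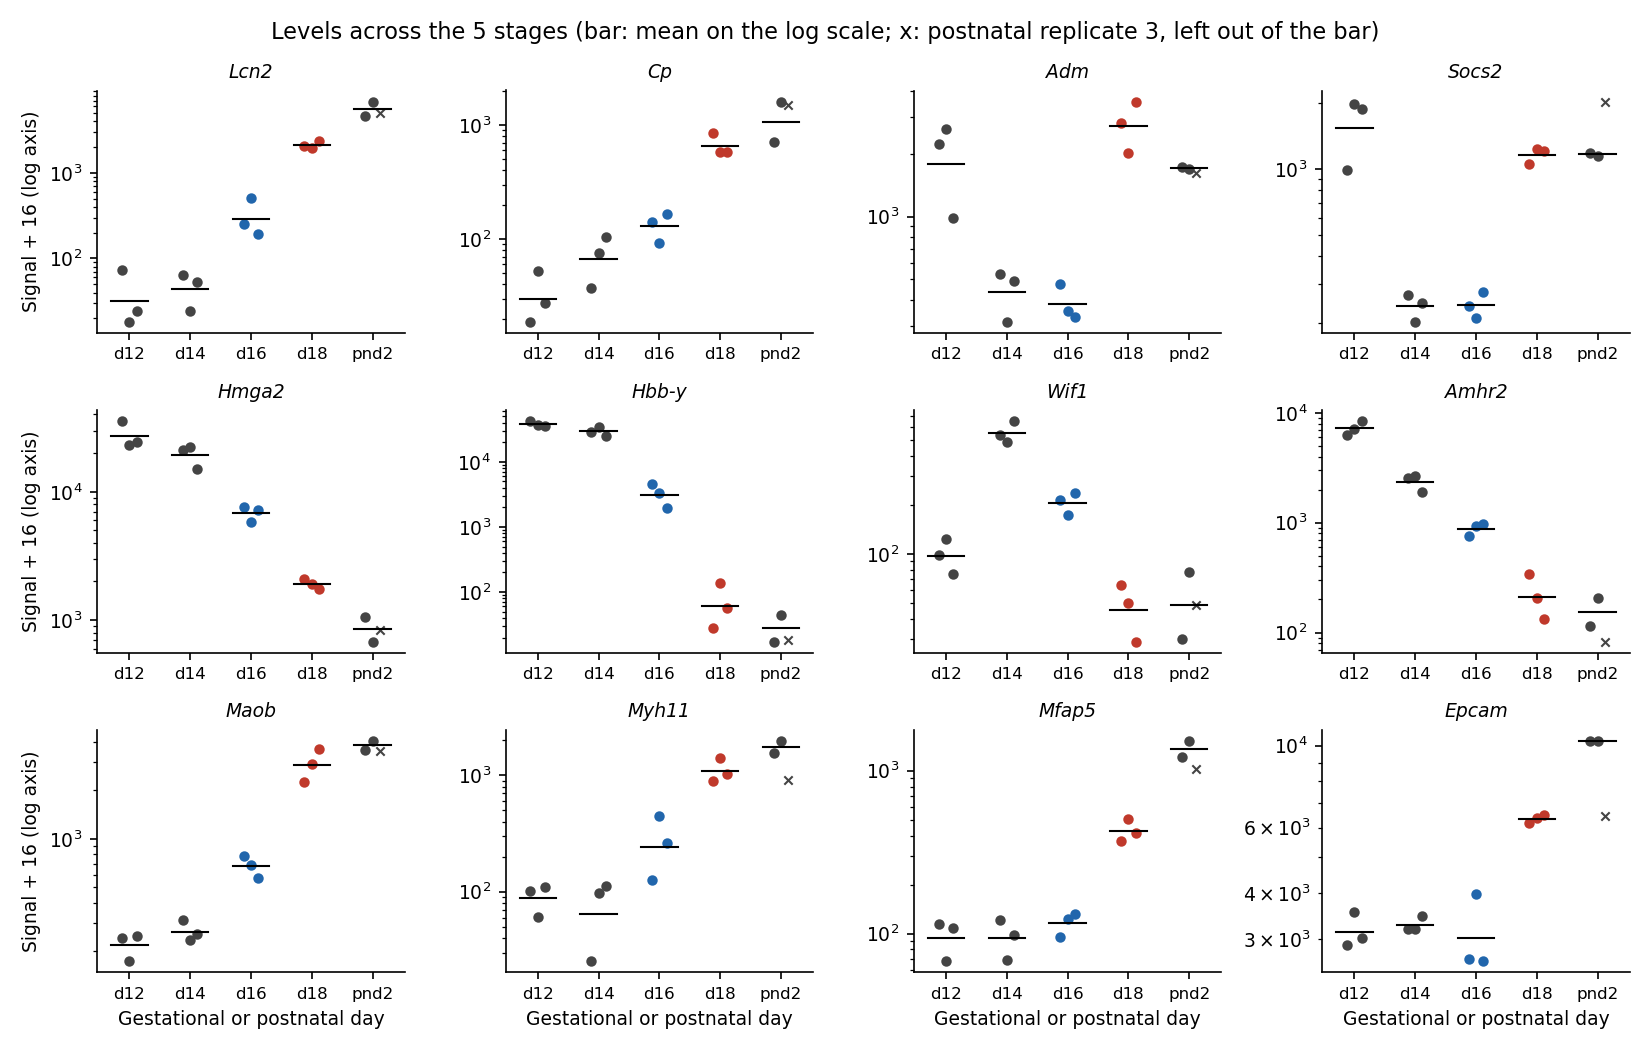
Signal plus 16, on a log axis, of 12 genes on the 15 epididymis arrays, with gd16 in blue, gd18 in red and the other stages in dark grey. Black bars are stage means on the log scale, and the cross is pnd2 replicate 3, which is left out of the bar. Adm and Socs2 are low at gd14 and gd16 only, Wif1 is highest at gd14, and Hmga2, Hbb-y and Amhr2 have lower means at each stage up to pnd2.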

How the data were processed

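RNA of whole epididymides was amplified in 2 rounds and hybridised to Affymetrix mouse arrays. The extraction protocol named in the labels is one for whole testes. The deposited values are linear intensity (signal), made with GCOS per the submitters' processing notes, with each probe set read once on every array. Its version and settings: not given in the sources used here. A single scaling factor per array keeps ratios within that array, and a change in many bright transcripts shifts the others together.

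Of 45101 probe sets, 64 were controls, 34945 had 1 gene symbol in the array annotation, 932 several and 9160 were not listed. Values were taken as log2(signal + 16). Each gene was represented by its brightest probe set among those at or above the array median on at least 3 of the 6 arrays. A gene could pass on the 3 arrays of its higher stage alone. Defb29, Mfap5 and Mt3 did so through gd18, and Hbb-y, Slc4a1 and Wif1 through gd16. Probe sets whose ID ends in _s_at, _x_at or _a_at may bind related sequences, and those of Hbb-y, Slc4a1, Amhr2, Adm, Socs2, Lcn2, Cp and Wif1 do. The main fit used limma 3.58.1 in R 4.3.3 with moderated variances and an intensity trend on the 6 arrays, with Benjamini-Hochberg adjustment over 11035 genes and an adjusted p under 0.05 as the threshold. The fits of pnd2 against gd14 and of gd14 against gd12 used the same genes and settings on their own arrays. The scripts were tested on simulated data.

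Genes were named by rule: up to 15 rises and 15 falls of the largest size among called genes whose stages did not overlap and whose higher mean reached the middle of the arrays, and the called members of the lists with a few others of them. Clone and model names were passed over. The members and lists were chosen with earlier results of these data known, so a list's direction is not independent evidence. Genes that 2 lists share count in both. Alternatives covered the arrays in the fit, normalization, the constant, the filter, the choice of probe set, the variance model and the threshold. The labels say that each animal of the 2 stages was separate, so p-values cover the spread between animals and handling together. Their number, 3 per stage, limits the precision. The labels give no batch.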

Additional observations from a re-analysis of the deposited data

How the results depend on the processing

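Under the alternatives run, the 252 called genes that could be tested kept the sign of their difference, except Atpif1, whose difference went to -0.0025 (adjusted p = 0.996) when probe sets without a cross-binding suffix were preferred. Adding arrays of other stages to the fit, dropping the intensity trend or changing the threshold leaves the difference itself the same. Its sign could not change under those alternatives. The count of called genes was 183 to 298 with the 12 fetal arrays, the 14 arrays without pnd2 replicate 3, other normalizations, other constants, other filters except none, other choices of probe set or array weights. It fell to 39 (28 higher, 11 lower) with all 15 epididymis arrays in the fit, 136 (114 and 22) with no filter and 99 (80 and 19) with no intensity trend. When all 6 arrays had to reach the array median, 218 of the 252 genes were still tested and 216 of them called. Of the 30 genes named for the largest changes, 12 were called there. An adjusted p under 0.01 left 68 (56 and 12), under 0.10 gave 540 (396 and 144), and a 2-fold limit left 119 (94 and 25). Leaving out each array in turn gave 92 to 204 called genes, 77 to 170 of them higher and 15 to 34 lower. For pnd2 against gd14, 315 genes were called with pnd2 replicate 3 against 2409 without it, and 1719 to 1852 when another array was left out. For gd14 against gd12 the count was 2903, and 1719 to 3076 when an array was left out, alternatives that were chosen after seeing the data. The share of calls that were higher ran from 71.6% to 83.8%. No paired analysis was possible because the replicate numbers of the 2 stages are different. Dim genes limit precision, since signals under the constant of 16 have little order.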

Other observations

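The genes named in this section were chosen after their values were seen. Genes for the coat of caveolae, small pits of the cell membrane, were among the 200 genes higher at gd18. Cav1, the main caveolin, read 4266, 4130 and 3828 at gd16 and 8778, 7674 and 9915 at gd18 (1.10, adjusted p = 0.0016, limma). Cav2 rose by 1.34, Cavin1 by 0.73, Cavin2 by 0.84 and Cavin3 by 0.98. The calls of Cav1, Cav2 and Cavin2 held. Those of Cavin1 and Cavin3 did not, with a limma adjusted p of up to 0.0606 without an array. Cavin2 is also in the list of genes that respond to glucocorticoids. The caveolae genes were not themselves drawn from a list, so no share of genes tested stands beside them. Between gd14 and pnd2 (replicates 1 and 2) the caveolin and cavin genes were higher by 1.46 to 2.28. The surface proteins Cd34 and Cd44, found on mesenchymal and other cells, rose by 1.09 and 1.37. On pnd2 replicate 3, Cavin1 and Cd34 read 216.2 and 474.3, while they were 2595 to 2920 and 4347 to 4988 on the other pnd2 arrays.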
